A study of Homo sapiens with 12 samples.

Results

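The 9 genes described here are the core of the TGF-beta signalling pathway, namely the 3 ligand genes TGFB1, TGFB2 and TGFB3, the receptor genes TGFBR1 and TGFBR2, and SMAD2, SMAD3, SMAD4 and SMAD7. They were chosen by name, and their Ensembl identifiers were matched to symbols in GENCODE v44, which gave all 9 of the 63677 identifiers counted. RNA-seq was performed on wild-type MiaPaca2 cells, an established human pancreatic ductal adenocarcinoma (PDAC) line, in 12 libraries from 4 groups of 3. The groups were DMSO (Con), the vitamin D receptor agonist calcipotriol at 1 µM (CPT), glyceryl triacetate at 2 mM with 5-Aza-2′-deoxycytidine at 1 µM (GTA+5-Aza), and all 3 agents together (CPT+GTA+5-Aza), each for 24 h. GTA donates acetate that cells can use to acetylate histones, 5-Aza blocks DNA methyltransferases, and cells that received both are called primed. GTA and 5-Aza were never given apart, so the effect of each cannot be told apart. The cells were all of a single line, grown as a monoculture, in 3 libraries per group. The paper's methods call the samples of an experiment independent, but neither they nor the labels say whether these libraries came from separate cultures, and p-values then measure the spread between these libraries, which may be technical.

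The TGF-beta ligands are secreted as latent complexes and, once activated, bind the type II receptor TGFBR2, which recruits and phosphorylates the type I receptor TGFBR1. TGFBR1 then phosphorylates SMAD2 and SMAD3, which enter the nucleus with SMAD4 and regulate target genes, while SMAD7 is induced by the pathway and inhibits it at the receptor. In PDAC the pathway restrains growth early and favours invasion and a fibrotic stroma later, and SMAD4 is among the genes most often lost in this cancer.

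Since priming included an inhibitor of DNA methylation, the CpG content of the 9 promoters was counted in the RefSeq sequence of GRCh38.p14. The windows ran from 250 bases before to 50 bases after a single RefSeq start of each gene. That start is the GENCODE end of the gene for the ligands and SMAD7. For TGFBR1, TGFBR2, SMAD2, SMAD3 and SMAD4 it differs (67065602 against 67063763 for SMAD3), so their counts describe the RefSeq start only. The 250 bases before the start are shown for the ligand genes, which hold 2 of the 3 members called in the comparisons of priming, with every CpG in capitals. The TGFB1 sequence is chr19:41353923-41354172 on the minus strand, the TGFB2 sequence is chr1:218345086-218345335 on the plus strand, and the TGFB3 sequence is chr14:75983012-75983261 on the minus strand.
TGFB1: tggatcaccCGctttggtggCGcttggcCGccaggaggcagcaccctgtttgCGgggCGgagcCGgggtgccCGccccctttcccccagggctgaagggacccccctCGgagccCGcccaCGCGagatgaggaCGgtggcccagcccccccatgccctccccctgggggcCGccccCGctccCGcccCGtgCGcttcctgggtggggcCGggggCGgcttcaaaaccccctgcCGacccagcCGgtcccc
TGFB2: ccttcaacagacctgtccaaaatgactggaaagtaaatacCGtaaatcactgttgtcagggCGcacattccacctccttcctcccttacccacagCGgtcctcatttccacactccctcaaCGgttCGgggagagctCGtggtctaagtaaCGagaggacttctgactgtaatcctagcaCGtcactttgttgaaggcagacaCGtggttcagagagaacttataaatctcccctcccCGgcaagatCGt
TGFB3: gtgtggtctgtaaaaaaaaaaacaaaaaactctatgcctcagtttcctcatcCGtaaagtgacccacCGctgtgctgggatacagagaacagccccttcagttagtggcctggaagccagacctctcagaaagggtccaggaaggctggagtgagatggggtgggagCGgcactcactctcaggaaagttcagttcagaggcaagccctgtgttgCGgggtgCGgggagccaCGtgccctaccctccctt
The TGFB1 stretch holds 21 CpGs, the TGFB2 stretch 11 and the TGFB3 stretch 6. In the whole window of 300 bases, TGFB1 has 28 CpGs, at percentile 74.8 of the 35116 promoters in the table, while TGFB2 with 14 (percentile 50.4) and TGFB3 with 10 (percentile 44.4) lie near the median of 14. Of the other members, SMAD2 (45), SMAD3 (44) and TGFBR1 (40) have the most CpGs in the window, SMAD4 has 28, SMAD7 has 13, and TGFBR2 has the fewest, 8. Methylation itself was not measured in these libraries. The letters CAGAC, part of the element that SMAD proteins bind, or their complement GTCTG occur in the windows of 5 of the 9 genes, TGFB2, TGFB3 and SMAD7 with 2 each and TGFBR1 and SMAD3 with 1 each, beside 45.261% of all promoters of this length.

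The listed markers of pancreatic carcinoma cells were expressed in part. KRT8 (1540 ± 54.8 CPM in Con, SD, n = 3) and KRT18 (732 ± 41.4 CPM) were abundant, whereas EPCAM and CDH1, which define epithelial cells, were absent or nearly so, with 0.0159 ± 0.0275 and 0.0162 ± 0.0281 CPM in Con and at most 0.245 CPM in any library. CPM, the usual unit of reads relative to depth, are counts divided by the TMM-adjusted total of the library. Of 7 fibroblast markers, COL1A2 (810 ± 28.3 CPM in Con) and COL3A1 (93.1 ± 6.35 CPM) were abundant, while LUM was at 0 in every library and DCN in most. The summed fibroblast list ran from 879 to 932 CPM in Con, 780 to 848 in CPT, 988 to 1069 in GTA+5-Aza and 917 to 942 in CPT+GTA+5-Aza, and the summed carcinoma list from 2307 to 2463, 2162 to 2596, 2529 to 2705 and 2567 to 2647. Within these lists, COL1A1 had 0.135 ± 0.0819 CPM in Con, 0.126 ± 0.129 in CPT, 1.70 ± 0.509 in GTA+5-Aza and 1.44 ± 0.456 in CPT+GTA+5-Aza, and KRT7 had 0.389 ± 0.282, 0.735 ± 0.559, 2.02 ± 0.784 and 1.98 ± 0.725. Both lists were thus higher in GTA+5-Aza than in Con with no overlap, and their part in the results was not tested. Leukocyte markers summed to at most 0.778 CPM, endothelial markers to at most 0.624 CPM, and acinar and islet markers were at 0. Total counts ran from 16162490 to 21224665 per library.

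TGFB1 was by far the most highly expressed member (the plot of levels per length). Per kilobase of exon union, Con libraries had 33.7 ± 2.29 CPM of TGFB1, 10.2 ± 0.311 of SMAD3, 3.91 ± 0.108 of SMAD4, 2.43 ± 0.0907 of SMAD2, 2.14 ± 0.242 of TGFBR1, 0.877 ± 0.171 of TGFB3, 0.400 ± 0.125 of SMAD7, 0.298 ± 0.0335 of TGFB2 and 0.159 ± 0.0150 of TGFBR2 (SD, n = 3). In that order, SMAD7 and TGFB2 were the only neighbours in Con whose libraries overlapped. The length used matters for the middle of the order, since the exon unions of SMAD2 (36426 bases) and SMAD4 (19606 bases) are long. With the canonical transcript, SMAD4 was at 8.74 and TGFBR1 (2.64) stood level with SMAD2 (2.56), while TGFB1 stayed highest (39.5) and TGFBR2 lowest (0.241).

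**Figure D1:**
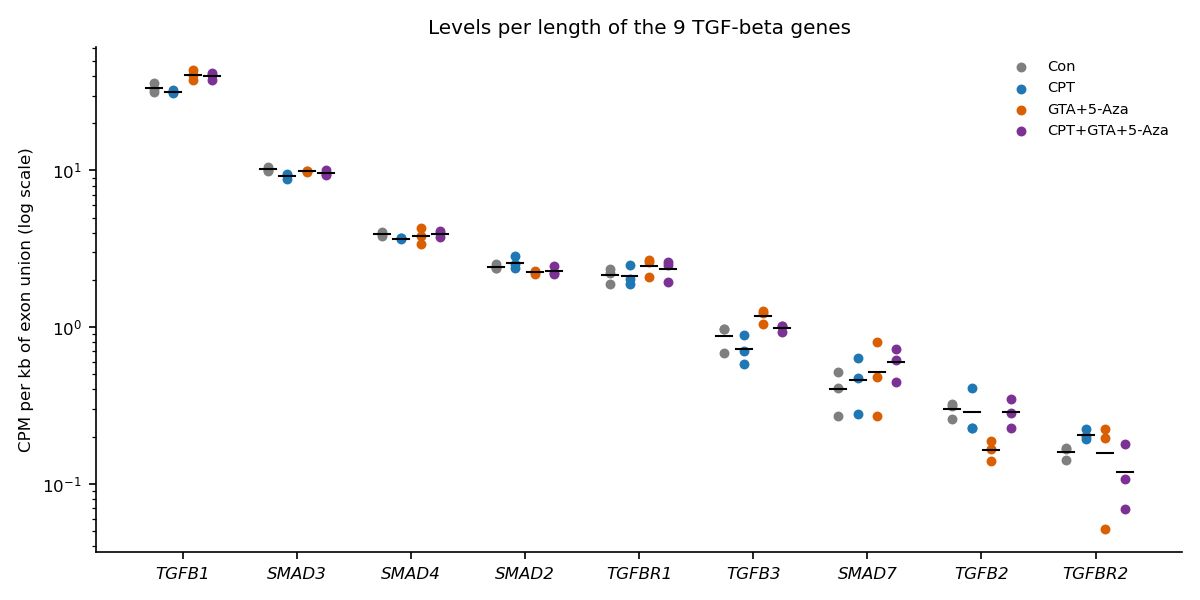
Level per length of the 9 genes (CPM per kilobase of exon union, log scale), with a point for each of the 12 libraries and a bar at each group mean. TGFB1 lies at 31.2 to 43.7 in every library, above all other members, and TGFBR2 and TGFB2 lie lowest, at 0.0512 to 0.223 and 0.141 to 0.409.

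Per length, the 3 classes of member were each led by a single gene in all 12 libraries. TGFB1 made up 96.0% to 97.5% of the per-length signal of the 3 ligands over the 12 libraries, and TGFB2 made up 0.339% to 1.26%. Within the receptor pair, TGFBR1, the kinase that acts on the SMADs, held 90.0% to 98.1%, and TGFBR2 the remainder. SMAD3 held 76.5% to 81.9% of the sum of the 2 receptor-activated SMADs, or 82.8% to 87.0% by canonical transcript length. Both shares depend on the length of SMAD2, whose exon union (36426 bases) and canonical transcript (34626 bases) are long. In CPM, SMAD3 and SMAD2 had 102 ± 3.11 and 88.6 ± 3.30 in Con (SD, n = 3). They had 92.1 ± 3.29 and 93.8 ± 8.92 in CPT, 98.5 ± 0.983 and 81.4 ± 1.80 in GTA+5-Aza, and 96.5 ± 3.97 and 83.2 ± 5.48 in CPT+GTA+5-Aza. The mRNA of the type II receptor, to which the ligands bind first, was the scarcest of the 9 per length in Con. It had 7 to 28 counts per library over all 12.

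Priming was first compared without CPT (GTA+5-Aza against Con) and with CPT (CPT+GTA+5-Aza against CPT), and then on average over both, with the quasi-likelihood test of edgeR and p-values adjusted by the Benjamini-Hochberg method over 17123 genes. The first of these and the later comparison of the full combination share the Con libraries, and the average uses all 12. TGFB1 was the only member called in each of the priming comparisons, with a rise that fell short of 1.5-fold. All 9 members passed the filter on low counts. Without CPT, 1 of the 9 was called at an adjusted p under 0.05 beside 17.5% of all genes tested, and with CPT 1 of 9 beside 17%. On average 3 of 9 were called, TGFB1 and TGFB3 higher and SMAD2 lower, beside 30.9% of all genes (16.8% higher and 14% lower), so that the members' share was near the background. The libraries of the groups compared did not overlap for 5 of the 9 members without CPT, beside 34.1% of all genes, for 4 with CPT, beside 30.8%, and for 1, TGFB1, in the average, beside 14.8%. The median log2 fold change of average priming was 0.04 over the 9 members and 0.0059 over all genes tested. In bulk RNA, fewer cells with a transcript and less of it in each cell cannot be told apart.

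**Figure D2:**
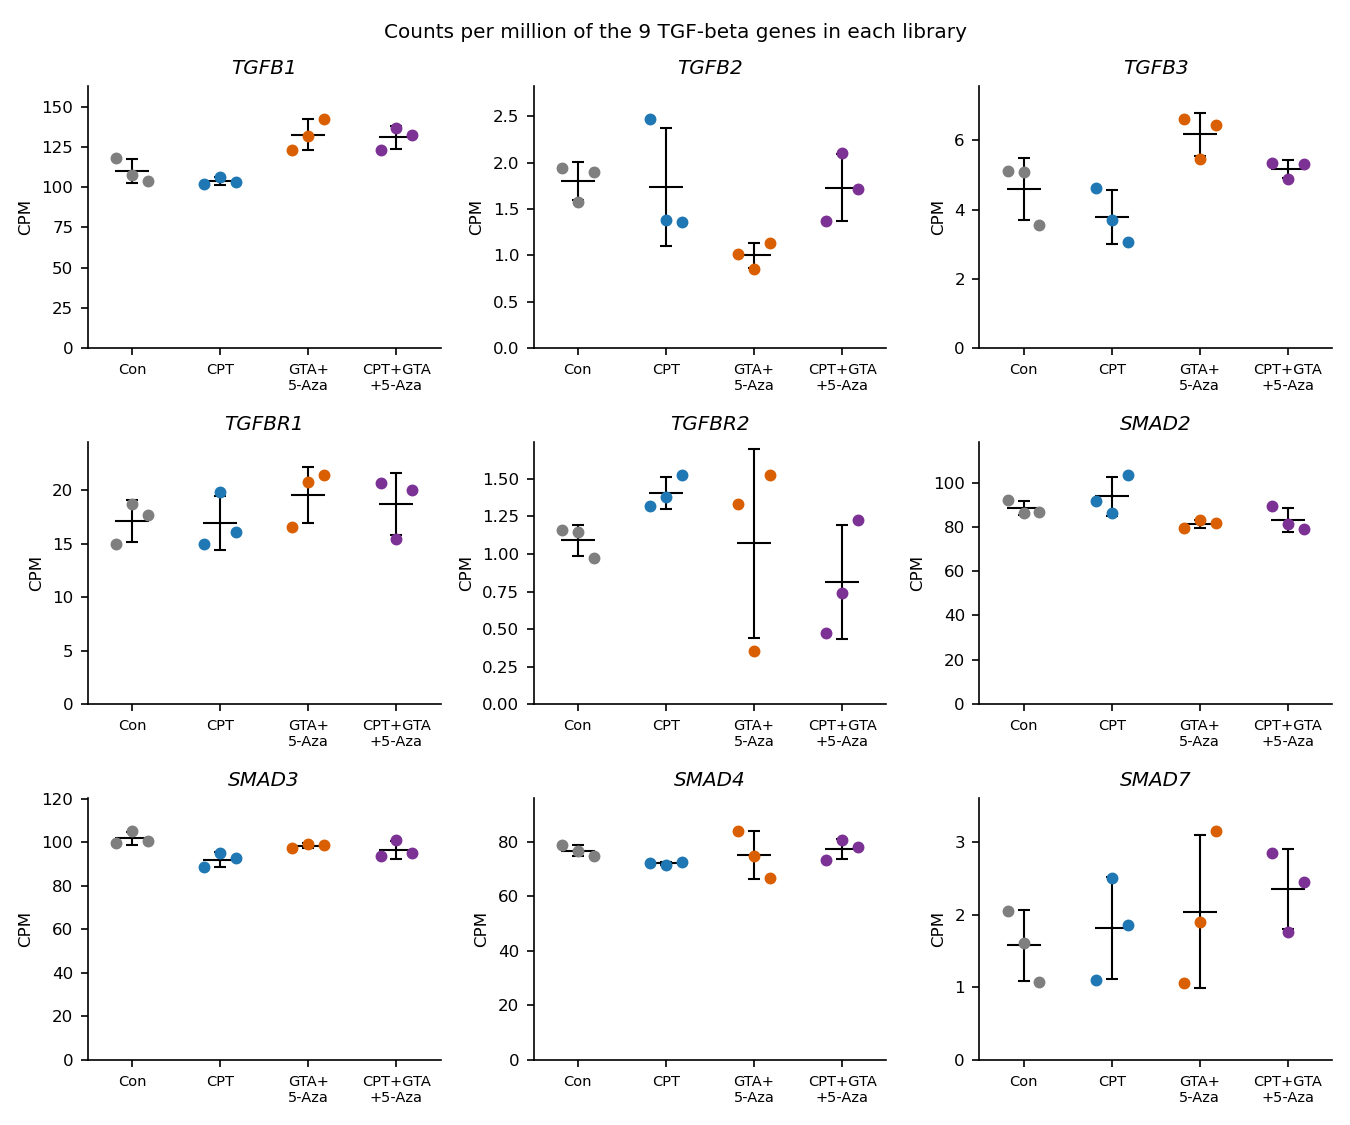
CPM of each of the 9 genes in each of the 12 libraries (linear axes from 0), with points for libraries and bars for the group mean ± SD of 3. All 6 primed libraries lie above all 6 unprimed libraries for TGFB1 alone, and TGFB2 is lowest in GTA+5-Aza, at 0.851 to 1.13 CPM.

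TGFB1 (ENSG00000105329, chromosome 19 from 41301587 to 41353922, minus strand), the most widely expressed of the 3 isoforms, had 118, 108 and 104 CPM in Con, 102, 106 and 103 in CPT, 123, 132 and 143 in GTA+5-Aza, and 123, 137 and 133 in CPT+GTA+5-Aza. Every primed library was above every unprimed library, although the nearest, GTA+5-Aza replicate 1 and Con replicate 1, were close. Its log2 fold change was 0.27 (SE 0.07, adjusted p = 0.00817) without CPT, 0.34 (SE 0.07, adjusted p = 0.00143) with CPT and 0.30 (SE 0.05, 95% CI 0.20 to 0.40, adjusted p = 3.54e-05) on average, or 1.23-fold. In the full combination against Con it was 0.25 (SE 0.07, adjusted p = 0.0131), where TGFB1 was again the only member called, beside 16.8% of all genes, and the only member whose libraries did not overlap, beside 35.8%. The call without CPT was lost without Con replicate 3 (0.23, adjusted p = 0.0683) or GTA+5-Aza replicate 3 (0.21, adjusted p = 0.0707), and that of the full combination without Con replicate 3, CPT+GTA+5-Aza replicate 2 or replicate 3, whereas the average call was kept without any single library. TGFB1 shares 215 exonic bases (6.6%) with the antisense gene HNRNPUL1, which had a log2 fold change of 0.09 (adjusted p = 0.106), and as no strand setting is stated for the counting, reads there could belong to either.

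TGFB3 (ENSG00000119699, chromosome 14 from 75958097 to 75983011, minus strand), an isoform that signals through the same receptors, was higher in primed cells on average. It had 5.10, 5.10 and 3.55 CPM in Con, 4.62, 3.69 and 3.06 in CPT, 6.63, 5.46 and 6.44 in GTA+5-Aza, and 5.34, 4.88 and 5.33 in CPT+GTA+5-Aza. The primed and unprimed libraries did not overlap within either pairwise comparison, but a CPT+GTA+5-Aza library lay below the upper Con libraries. The log2 fold change was 0.43 (SE 0.21, adjusted p = 0.182) without CPT, 0.45 (SE 0.22, adjusted p = 0.174) with CPT and 0.44 (SE 0.15, 95% CI 0.12 to 0.76, adjusted p = 0.0302) on average. The average call rests on few counts, 56 to 124 per library, and was lost when any of 6 libraries was left out in turn (Con replicate 3, CPT replicate 3, GTA+5-Aza replicates 1 and 3, and CPT+GTA+5-Aza replicates 1 and 3), with adjusted p from 0.0539 to 0.0934, and with no filter on low counts (0.0600). TGFB3 overlaps the antisense transcript TGFB3-AS1, which had 104 counts in all 12 libraries.

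TGFB2 (ENSG00000092969, chromosome 1 from 218345336 to 218444619, plus strand), the isoform that depends most on the co-receptor betaglycan, had lower estimates in primed cells, unlike the other ligands, but in no comparison did it pass the adjusted threshold. It had 1.95, 1.57 and 1.90 CPM in Con, 2.47, 1.38 and 1.36 in CPT, 1.02, 0.851 and 1.13 in GTA+5-Aza, and 1.37, 2.10 and 1.71 in CPT+GTA+5-Aza, from 17 to 45 counts per library. The 3 GTA+5-Aza libraries were the lowest of all 12, and those with CPT added lay back within the range of unprimed cells. With CPT, the log2 fold change of priming was -0.01 (95% CI -0.79 to 0.78, adjusted p = 0.994), against -0.85 without CPT (95% CI -1.66 to -0.04, unadjusted P = 0.0404), and on average it was -0.43 (95% CI -0.99 to 0.14, adjusted p = 0.257). The difference between these effects, the interaction of CPT and priming, was 0.85 (95% CI -0.28 to 1.97, unadjusted P = 0.136), so that a dependence of the TGFB2 estimate on CPT was not detectable at this depth. In primed cells CPT gave a log2 fold change of 0.79 (95% CI -0.03 to 1.61, unadjusted P = 0.0585), with no overlap between libraries. By the study's thresholds, a fold over 1.5 with an unadjusted P under 0.05, TGFB2 was the only member to pass without CPT, beside 8.44% of all genes. TGFB2 overlaps TGFB2-AS1 on the other strand, which had 19 counts in all.

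Neither receptor gene was called. TGFBR1 (ENSG00000106799, chromosome 9 from 99104038 to 99154192, plus strand) had 15.0, 18.7 and 17.7 CPM in Con, 15.0, 19.8 and 16.1 in CPT, 16.6, 20.7 and 21.5 in GTA+5-Aza, and 20.7, 15.4 and 20.0 in CPT+GTA+5-Aza. The groups overlapped throughout, and the average log2 fold change of priming was 0.17 (95% CI -0.04 to 0.37, adjusted p = 0.233). TGFBR2 (ENSG00000163513, chromosome 3 from 30606601 to 30694142, plus strand) had 1.16, 1.14 and 0.972 CPM in Con, 1.32, 1.38 and 1.53 in CPT, 1.34, 0.351 and 1.52 in GTA+5-Aza, and 0.475, 0.738 and 1.22 in CPT+GTA+5-Aza. The CPT libraries were high and close together, those of primed cells were scattered, and GTA+5-Aza replicate 2 was lowest, at 7 counts. The log2 fold change of priming for TGFBR2 was -0.04 (95% CI -1.09 to 1.02) without CPT, -0.80 (95% CI -1.88 to 0.28, adjusted p = 0.337) with CPT and -0.42 (95% CI -1.17 to 0.34, adjusted p = 0.429) on average. These intervals include changes of more than 1.5-fold in either direction without CPT, so little can be said of TGFBR2 at this depth.

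Among the SMADs, SMAD2 (ENSG00000175387, chromosome 18 from 47808957 to 47931146, minus strand), a receptor-activated SMAD, fell slightly with priming on average. It had 92.4, 86.4 and 86.9 CPM in Con, 91.6, 86.2 and 103.6 in CPT, 79.4, 83.0 and 81.8 in GTA+5-Aza, and 89.4, 81.2 and 79.0 in CPT+GTA+5-Aza. All GTA+5-Aza libraries were below all Con libraries, whereas CPT+GTA+5-Aza overlapped CPT. The average log2 fold change was -0.15 (SE 0.05, 95% CI -0.26 to -0.04, adjusted p = 0.0386), with -0.12 (adjusted p = 0.307) without CPT and -0.17 (adjusted p = 0.128) with CPT. The average call was lost with upper quartile scaling (adjusted p = 0.0551), with library sizes alone (0.140), with no filter on low counts (0.0576), and when any of 7 libraries was left out, namely Con replicates 1 and 3, CPT replicate 3, GTA+5-Aza replicates 1 and 3, and CPT+GTA+5-Aza replicates 2 and 3 (0.0504 to 0.112). The direction was kept in each of these. Without CPT replicate 2, SMAD2 was called in the comparison with CPT (-0.24, adjusted p = 0.0263).

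SMAD3 and SMAD4 were the steadiest members. SMAD3 (ENSG00000166949, chromosome 15 from 67063763 to 67195173, plus strand), a receptor-activated SMAD that binds DNA directly, had 99.6, 105 and 100 CPM in Con, 88.5, 94.99 and 92.9 in CPT, 97.5, 99.4 and 98.8 in GTA+5-Aza, and 93.6, 101 and 95.03 in CPT+GTA+5-Aza. Its highest library was 1.19 times its lowest, the narrowest span of the 9 genes, and the average log2 fold change of priming was 0.01 (95% CI -0.09 to 0.11, adjusted p = 0.900). SMAD4 (ENSG00000141646, chromosome 18 from 51028528 to 51085045, plus strand), the common partner of the receptor-activated SMADs, had 78.8, 76.5 and 74.6 CPM in Con, 72.0, 71.2 and 72.6 in CPT, 83.9, 74.7 and 66.6 in GTA+5-Aza, and 73.2, 80.5 and 77.8 in CPT+GTA+5-Aza. It was expressed in every library, and its average log2 fold change with priming was 0.04 (95% CI -0.08 to 0.15, adjusted p = 0.685). Both intervals leave out a change of 1.5-fold.

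SMAD7 (ENSG00000101665, chromosome 18 from 48919853 to 48950965, minus strand), the inhibitory SMAD, had 2.05, 1.62 and 1.07 CPM in Con, 1.10, 2.51 and 1.86 in CPT, 1.07, 1.90 and 3.16 in GTA+5-Aza, and 2.85, 1.76 and 2.45 in CPT+GTA+5-Aza. The groups overlapped, and the libraries within a group differed as much as the groups did. The average log2 fold change was 0.37 (95% CI -0.22 to 0.96, adjusted p = 0.367), and that of the full combination was 0.58 (95% CI -0.26 to 1.41, adjusted p = 0.376), from 20 to 56 counts per library.

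No member was called in the comparisons of CPT. In unprimed cells, in primed cells and in the interaction, 0 of the 9 members and 0% of all genes passed an adjusted p of 0.05 by edgeR, and DESeq2 likewise called 0 members. An unadjusted P under 0.05 was reached by 1 member in unprimed cells, beside 4.28% of all genes, by 0 in primed cells, beside 2.71%, and by 0 in the interaction, beside 2.63%. The libraries did not overlap for 3 members in unprimed cells (TGFBR2, SMAD3 and SMAD4), beside 8.02% of all genes, and for 2 in primed cells (TGFB2 and TGFB3), beside 9.15%. The member with an unadjusted P under 0.05 was SMAD3, where every CPT library lay below every Con library and the log2 fold change was -0.14 (95% CI -0.28 to -0.01, unadjusted P = 0.0380, adjusted p = 1). In primed cells the SMAD3 estimate was -0.03 (95% CI -0.17 to 0.11). For TGFB1, CPT gave -0.08 (95% CI -0.23 to 0.06) in unprimed and -0.02 (95% CI -0.16 to 0.13) in primed cells, and the interaction was 0.07 (95% CI -0.14 to 0.27), so these intervals leave out a 1.5-fold change by CPT in either state. For TGFB3, SMAD2 and SMAD7 the interaction was 0.02 (95% CI -0.61 to 0.65), -0.05 (95% CI -0.27 to 0.17) and -0.0044 (95% CI -1.13 to 1.12).

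**Figure D3:**
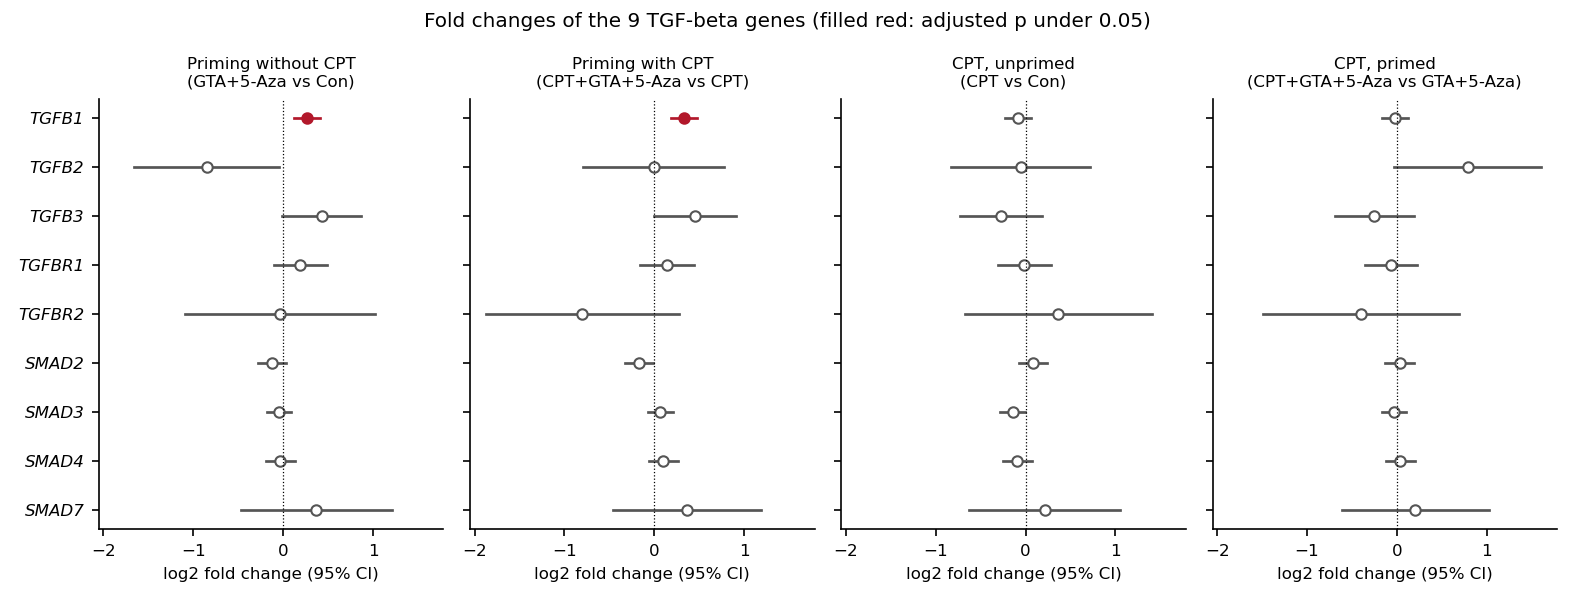
Log2 fold change of the 9 genes, with 95% confidence intervals, for priming without and with CPT and for CPT in unprimed and primed cells. Filled red points mark an adjusted p under 0.05, which TGFB1 alone reached, at 0.27 and 0.34, in the priming panels, and the widest intervals belong to TGFB2, TGFBR2 and SMAD7, the members with the fewest counts.

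Other genes of the pathway were called in both directions. Of 85 genes in 6 lists, 66 passed the filter on low counts, and edgeR called 27 of these higher and 11 lower in average priming, beside 16.8% and 14% of all genes tested. The lower calls were 7 with library sizes alone and when CPT replicate 1, CPT+GTA+5-Aza replicate 2 or CPT+GTA+5-Aza replicate 3 was left out. The median log2 fold change of the 66 was 0.16. The 27 higher calls and the median include THBS1, which passed the filter through the primed libraries, where it was high. The lists were written with earlier results of these data known, and their counts are descriptions.

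Genes of latency and activation include latent TGF-beta binding proteins and activators of the latent ligands. Of 10 tested, 6 were called higher and 0 lower, beside 16.8% and 14% of all genes, with a median of 0.27. The 6 include THBS1, whose call is void because it passed the filter on low counts through the primed libraries. LTBP2 and LTBP4 encode matrix proteins of the latent TGF-beta binding family, of which LTBP2 is known not to bind latent TGF-beta. They rose from 15.3 ± 1.66 CPM in Con and 13.6 ± 0.497 in CPT to 31.4 ± 4.41 in GTA+5-Aza and 32.9 ± 2.17 in CPT+GTA+5-Aza, and from 9.39 ± 1.18 and 7.49 ± 1.71 to 21.96 ± 2.62 and 20.5 ± 2.03 (SD, n = 3). Their average log2 fold changes were 1.16 (SE 0.09, adjusted p = 1.20e-10) and 1.34 (SE 0.11, adjusted p = 7.05e-10), with no overlap between primed and unprimed libraries. LTBP3, which binds latent TGF-beta, rose by 0.45 (adjusted p = 2.20e-05) and FURIN, the protease that cleaves the ligand precursors, by 0.22 (adjusted p = 0.00676). THBS1, an activator of latent TGF-beta, had at most 1 count in a Con library and 0 in all CPT libraries, against 0.911 ± 0.482 CPM in GTA+5-Aza and 0.978 ± 0.419 in CPT+GTA+5-Aza. Set against a floor of 3 counts per library, its mean was at least 5.78-fold higher in GTA+5-Aza than in Con. The mean in CPT+GTA+5-Aza was at least 5.93-fold higher than in CPT. These bounds are for group means, and the lowest primed libraries had 0.501 CPM in GTA+5-Aza and 0.511 in CPT+GTA+5-Aza. THBS1 passed the filter on low counts through the primed libraries, where it was high, so no p is given. Such a floor covers counting error only. The integrin gene ITGB6, whose product activates latent TGF-beta on epithelial cells, was not called (-0.38, adjusted p = 0.534).

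Only 3 of the 12 other SMAD2/3 ligands and antagonists passed the filter, and 2 were called higher, beside 16.8% of all genes. GDF11, a ligand that also signals through SMAD2 and SMAD3, had a log2 fold change of 0.82 (SE 0.10, adjusted p = 3.78e-07), and FSTL3, a secreted antagonist of activins, 0.35 (SE 0.10, adjusted p = 0.00989). The remaining tested gene was NODAL (0.66, adjusted p = 0.373). MSTN and TDGF1 had no count in any library.

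The other receptors moved both ways, with a median of -0.09. Of 9 tested, 3 were called higher and 4 lower, beside 16.8% and 14% of all genes. TGFBR3, the betaglycan co-receptor that presents TGF-beta to TGFBR2, fell from 95.2 ± 4.94 CPM in Con and 89.1 ± 10.2 in CPT to 62.5 ± 4.88 in GTA+5-Aza and 51.5 ± 1.90 in CPT+GTA+5-Aza, a log2 fold change of -0.70 (SE 0.06, adjusted p = 1.30e-09). BAMBI, a pseudoreceptor that dampens signalling, changed by -0.76 (SE 0.09, adjusted p = 6.41e-07). The BMP receptor genes BMPR2 (-0.36, adjusted p = 9.39e-06) and BMPR1A (-0.25, adjusted p = 9.97e-04) also fell, while ACVR2A, an activin type II receptor, rose by 0.81 (adjusted p = 0.00137). For TGFBR3, BAMBI, BMPR2 and ACVR2A all 6 primed libraries lay on the same side of all 6 unprimed ones. Of the 4 other SMADs tested, 1 was called, beside 30.9% of all genes. It was SMAD6, an inhibitory SMAD of the BMP branch (-0.39, adjusted p = 0.0254). That call was lost without any of 6 libraries in turn (Con 1, CPT 1, GTA+5-Aza 1 or 2, CPT+GTA+5-Aza 2 or 3).

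Regulators of the SMADs were called higher in 4 and lower in 4 of 20, beside 16.8% and 14% of all genes, with a median of -0.01. The ubiquitin ligase genes SMURF2 and NEDD4L rose by 0.33 (SE 0.06, adjusted p = 7.14e-05) and 0.15 (SE 0.04, adjusted p = 0.00951). CREBBP, an acetyltransferase coactivator, STRAP, an inhibitor that binds SMAD7, and USP15, a deubiquitinase, fell, with log2 fold changes of -0.20 (adjusted p = 0.00264), -0.14 (adjusted p = 0.00861) and -0.26 (adjusted p = 0.00986). For STRAP the call was lost with library sizes alone (adjusted p = 0.0656).

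Of 26 target genes, 20 were tested, with a median log2 fold change of 0.50. Of these, 12 were called higher and 2 lower, beside 16.8% and 14% of all genes. The cytokine gene LIF rose by 1.07 (SE 0.08, adjusted p = 8.44e-11), SPHK1, a sphingosine kinase, by 1.05 (SE 0.08, adjusted p = 1.74e-10), the matrix protein gene TGFBI by 0.74 (SE 0.08, adjusted p = 4.61e-08) and CCN1, a matricellular protein, by 0.54 (SE 0.05, adjusted p = 2.78e-08). In these 4 the primed libraries lay above the unprimed ones. The target genes were not uniform, since SNAI2 (-0.26, adjusted p = 0.0321) and ZEB1 (-0.19, adjusted p = 0.0380), transcription factors of the mesenchymal state, fell, and FN1, which encodes fibronectin, had a log2 fold change of 0.0034 (SE 0.19, adjusted p = 0.992). SKIL and PMEPA1, which like SMAD7 are feedback inhibitors induced by SMAD3, had 0.07 (adjusted p = 0.552) and -0.07 (adjusted p = 0.588) in the list of regulators. These 5 genes were named after their values were seen, as were ITGB6, NODAL, MSTN and TDGF1. Most genes of the list also respond to other signals, and SMAD phosphorylation was not measured.

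**Figure D4:**
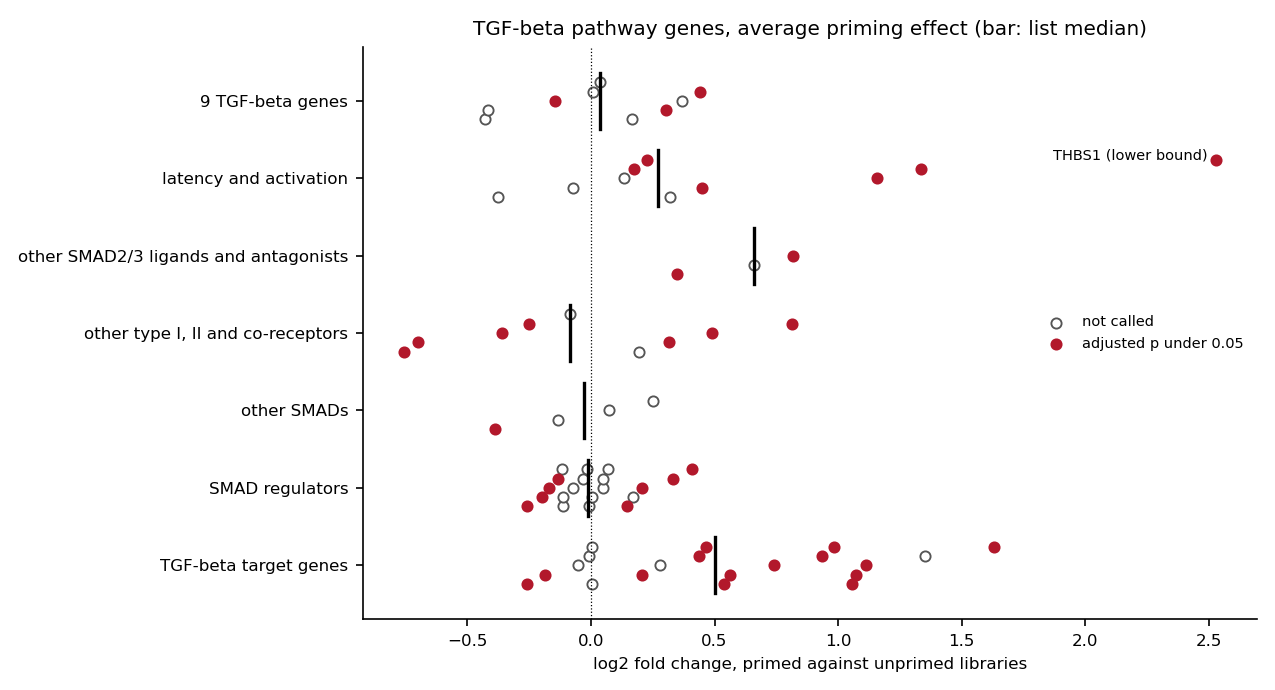
Average log2 fold change of primed against unprimed libraries for the 9 genes and for the tested genes of the 6 pathway lists, with filled red points for an adjusted p under 0.05 and a bar at each list median. The latency genes (median 0.27) and target genes (median 0.50) lie mostly to the right of 0 and the 9 core genes around it (median 0.04). THBS1 is drawn at 2.53, the lower bound of its mean in GTA+5-Aza against Con, not at its average estimate. Its filled point is not evidence, since it passed the filter on low counts through the primed libraries.

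In the comparisons of CPT and in the interaction, 0 of the 66 pathway genes were called by edgeR. Among the 66, an unadjusted P under 0.05 was reached by 6 in unprimed cells, beside 4.28% of all genes tested. It was reached by 3 in primed cells, beside 2.71%, and by 2 in the interaction, beside 2.63%.

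The genes whose levels ran most closely with the called members were found by Pearson correlation of log2 CPM over the 12 libraries among 13037 genes with a mean CPM over 1. For TGFB1 they were ADCY7 (r = 0.960), PIANP (0.958) and ZNF672 (0.958), for TGFB3 they were ACOT11 (0.980), LPCAT4 (0.920) and NANOS1 (0.917), and for SMAD2 they were DMXL1 (0.970), CLASP1 (0.952) and AQR (0.945). The points share libraries and treatment groups, and these values are descriptions.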

How the data were processed

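Gene-level counts from 12 MiaPaca2 libraries were analysed, in 4 groups of 3 taken from the sample labels. By the submitters' processing notes and the paper's methods, the authors ran Trim Galore on the paired-end reads, mapped them to GRCh38 using HISAT2 2.2.1 and ran HTSeq, and deposited raw counts with no normalization. The annotation release and the strand setting are not given in the sources used here, so counts of overlapping genes are uncertain. Of the 63677 identifiers, 52181 are in GENCODE v44, and these carry 99.047% of the counts. Library totals of 16162490 to 21224665 limit the precision of genes with few counts.

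Counts were tested in R 4.3.3 with edgeR 4.0.16 (filterByExpr, which left 17123 genes, TMM, glmQLFit and glmQLFTest in 1 fit of 12 libraries) and Benjamini-Hochberg adjustment over all genes tested. A call is an adjusted p under 0.05. Intervals are at 95%. CPM use TMM-scaled library sizes, and correlations used log2(CPM + 0.5). Levels per length divide CPM by the GENCODE exon union. Sequences are from RefSeq, and all 9 genes were matched.

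Genes named are the 9 members, up to 5 called genes with the smallest p per list in average priming, any list gene called in a CPT comparison or the interaction, and the 3 genes closest to each called member. Of these, 1 target gene is not reported here. The members, lists and rule were chosen with earlier results of these data known. Alternatives were other scalings and filters, DESeq2 1.42.0, the likelihood ratio test, glmTreat, fits of only the groups compared, the replicate number as a block and leaving out each library. Tested on simulated data of average priming over 16743 genes with 200 changed, the method called 72.3% of genes changed 1.5-fold, 78.1% of 2-fold and 90.8% of 3-fold. Of its calls 7.14% were false, above the threshold of 0.05. In the data 30.9% of genes were called, a far larger share than was changed in the simulation, so these rates need not hold there. Replicates were compared by chi-square over genes, with at least 3.88 per degree of freedom, so no library was a repeat of another.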

Additional observations from a re-analysis of the deposited data

Results flagged for a closer look

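For GDF11, the estimated effect of CPT differed between primed and unprimed cells by a log2 difference of 0.45 in edgeR's test of the interaction (unadjusted P = 0.0304, adjusted p = 1.00). It was picked from the 66 pathway genes after the test, of which 2 had an unadjusted P under 0.05, beside 2.63% of all genes. GDF11 had 13.4 ± 1.35 CPM in Con, 10.4 ± 1.93 in CPT, 20.2 ± 0.911 in GTA+5-Aza and 21.4 ± 2.19 in CPT+GTA+5-Aza (SD, n = 3), so that the estimate for CPT was below 0 in unprimed and above 0 in primed cells. The result fails the correction for multiple tests.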

How the results depend on the processing

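The counts of members called were recomputed under each alternative. The share of all genes called under each alternative is not given here, so these counts are descriptions without a background. Against a fold change of 1.5 itself (glmTreat), 0 members were called in all 4 priming comparisons and 8 of the 66 pathway genes in average priming, 8 higher and 0 lower, against 38. With no filter on low counts, 1 member was called in average priming, against 3. Leaving out each library in turn gave 0 to 1 members without CPT, 1 to 2 with CPT, 1 to 3 on average and 0 to 1 in the full combination, 0 to 0 in the comparisons of CPT and the interaction, and 30 to 40 pathway genes on average, 23 to 28 of them higher and 7 to 13 lower. With upper quartile scaling or library sizes alone, 2 members and 37 or 34 pathway genes were called on average, and the other alternatives gave the main counts of members and 37 to 39 pathway genes. No log2 fold change of a called result turned its direction. Under other scalings the median log2 fold change of all genes was at most 0.0473, with library sizes alone, against 0.0069 in the same comparison. The level per length with the canonical transcript was chosen as an alternative after seeing the data.

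No pairing of libraries by replicate number was seen. Deviations of libraries with the same number correlated at -0.375 to 0.415 (median 0.0188) over 18 pairs. Of 12 libraries, 5 correlated best with their own number. This check rests on 3 libraries per group and cannot exclude a pairing. With the replicate block, 1 member was called without CPT, 1 with CPT, 3 on average, 0 in the comparisons of CPT and the interaction, and 1 in the full combination, with 37 pathway genes on average. Depth limits TGFB2, TGFBR2 and SMAD7, with 7 to 56 counts per library.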
